A study of Mus musculus with 4 samples.

Results

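The PYHIN family, also called the Ifi200 family, was examined as 10 genes of mouse chromosome 1: Aim2, Ifi203, Ifi204, Ifi205, Ifi206, Ifi207, Ifi208, Ifi209, Ifi211 and Ifi213. They were found by symbol among the 48795 genes of the count table, and all 10 passed the filter on low counts that left 13495 genes for testing. The cells were bone marrow-derived macrophages of C57BL/6 mice, grown from marrow for 5 days with 50 ng/ml M-CSF and 10% serum. Control cells (2 libraries) were transfected with 50 nM control siRNA, and the other cells (2 libraries) with 50 nM of siRNAs against IRF2, a transcription factor of interferon-responsive promoters. RNA was taken 48 h later from both groups. How many siRNAs were used against IRF2 is not stated in the labels, and neither is whether replicates came from separate animals or cultures, so the spread between replicates may be technical.

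PYHIN proteins typically join a pyrin domain, which binds other pyrin domains, to a HIN domain, which can bind DNA. AIM2 is the member best known in macrophages: it binds double-stranded DNA in the cytosol and recruits the adaptor ASC, which activates caspase-1. Mouse IFI204 is the relative of human IFI16 and is known for signalling from DNA to interferon through STING. Many genes of the family are induced by interferons.

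The family was chosen by the measured fold changes, because its members differed between IRF2 siRNA and control siRNA in these libraries, Aim2 in the opposite direction to several others. Values of that contrast are therefore given as a description without a test. With IRF2 siRNA, 9 of the 10 members had a log2 fold change below 0 and Aim2 had one above 0. Ifi208, Ifi205 and Ifi213 were at less than 0.5 of their control level, Ifi211 and Ifi206 were nearer to it, and Ifi203 and Ifi207 differed little. The edgeR quasi-likelihood test over all genes called 5 members lower at an adjusted p under 0.05 and none higher. Over all genes tested, 1.79% were called, 1.27% lower and 0.511% higher. Since the contrast chose the family, nothing is read from these counts. Leaving out IRF2 siRNA replicate 1 left 3 members called, and dropping the filter on low counts left 1.

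Promoter sequences bear on this family because IRF proteins bind repeats of the letters GAAA. RefSeq promoter windows of GRCm38.p6, the assembly of mm10, run from 250 bases before to 50 bases after a transcription start, and 9 of the 10 members had one; Ifi204 did not. The motif GAAA, 2 bases of any kind and GAAA, the core of interferon-stimulated response elements, was searched on both strands. It was in a window of 7 of the 9 members: Ifi203, Ifi205, Ifi206, Ifi207, Ifi208, Ifi211 and Ifi213. Over all 32851 windows, 3.44% held it, and of 27025 genes 3.99% had it in any window. Several of the members' stretches are near-identical, so the 7 are not separate occurrences to set against that share. The stretches below are 60 bases, 5′ to 3′ on each gene's strand, with the 10 bases at the motif or nearest site in capitals. They are shown because the same site recurs across the cluster, while the windows of Ifi209 and Aim2 have no match.
Ifi208: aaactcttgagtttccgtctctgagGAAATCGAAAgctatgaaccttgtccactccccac
Ifi213: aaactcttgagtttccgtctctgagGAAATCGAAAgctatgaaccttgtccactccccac
Ifi206: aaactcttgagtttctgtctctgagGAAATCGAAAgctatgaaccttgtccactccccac
Ifi205: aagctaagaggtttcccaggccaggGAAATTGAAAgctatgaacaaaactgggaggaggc
Ifi211: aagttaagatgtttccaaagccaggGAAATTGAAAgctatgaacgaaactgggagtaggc
Ifi207: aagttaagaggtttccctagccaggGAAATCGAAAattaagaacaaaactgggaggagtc
Ifi203: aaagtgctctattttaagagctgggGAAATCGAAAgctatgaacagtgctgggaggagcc
Mndal: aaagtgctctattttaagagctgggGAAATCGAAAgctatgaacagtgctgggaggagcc
Ifi214: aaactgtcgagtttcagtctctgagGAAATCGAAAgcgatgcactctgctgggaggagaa
Ifi209: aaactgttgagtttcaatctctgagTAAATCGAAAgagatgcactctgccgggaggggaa
Aim2: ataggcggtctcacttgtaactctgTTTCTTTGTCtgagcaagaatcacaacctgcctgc

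In 5 members the match read GAAATCGAAA, a spelling looked at after the sequences were seen, which occurred in 16 of the 32851 windows. Mndal and Ifi214, PYHIN genes of the cluster outside the 10, also held that spelling. Ifi205 and Ifi211 had GAAATTGAAA, found in 38 windows. In the Ifi209 window 4 sites differed from the motif by 1 base, and the printed one was chosen as the most like the other stretches. It shares 54 of 60 bases with the closest of them, a value that this choice made as large as possible. It carries the substitution G1T, counted from 1 at the motif's 5′ end, and so is no match. The nearest site in the Aim2 window lies on the opposite strand and differs from the motif by A3C, counted on that strand. The Aim2 window belongs to a RefSeq start at 173420604, while the annotated gene begins at 173350879, so that end was not searched. A site with at most 1 mismatch was found in 35.4% of all windows.

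The matches on the gene strand began 58 bases before the start in Ifi208, 73 in Ifi213, 40 in Ifi206, 37 in Ifi211, 41 in Ifi207, 35 in Ifi203 and 134 in Ifi205. The printed stretch of Ifi208 is at chr1:173673582-173673641 on the plus strand and that of Ifi213 at chr1:173599311-173599370 on the minus strand. These stretches were identical over 60 bases, and each had 59 bases in common with Ifi206 at chr1:173491324-173491383, also on the minus strand. Ifi205 at chr1:174031855-174031914 and Ifi211 at chr1:173913049-173913108, both on the minus strand, shared 54 of 60 bases. The 3 near-identical stretches belong to members with log2 fold changes of −1.71, −1.20 and −0.96. Ifi203 and Ifi207 held the motif too, with log2 fold changes of −0.16 and −0.15. Members with a match ranged from the largest differences of the family to the smallest. Whether the motif or the stretch around it has a part in these values was not tested. Ifi205 had a further match on the opposite strand after its start, and 1 of 2 Ifi203 windows had none. That window belongs to the start at 173942672, where the annotated Ifi203 gene begins. The match of Ifi203 is in the window of a start at 173942492, beside 173942491, where annotated Mndal begins on the same strand. A longer motif, with AA and 2 further bases of any kind before that core, was in no member's window and in 0.563% of all windows. The motif TTC, 3 bases of any kind and GAA was also searched, and was in no member's window and in 8.3% of all windows.

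**Figure D1:**
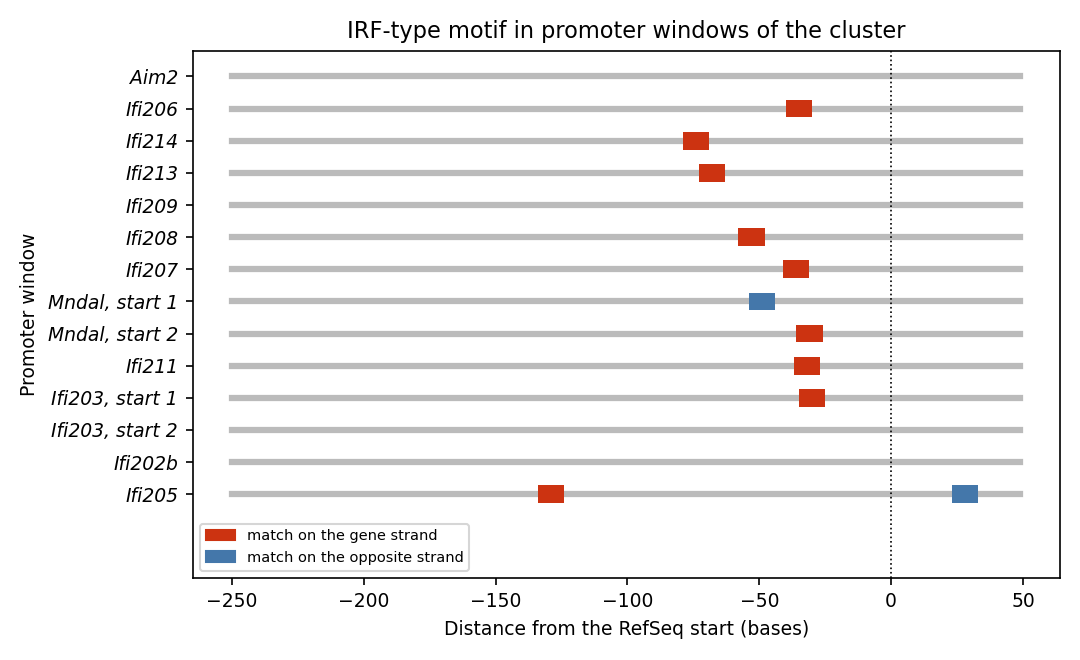
Position of the match to the motif of 2 GAAA repeats in each RefSeq promoter window of the cluster, in bases from the transcription start (x axis), with 1 grey line per window and genes in chromosomal order. Matches on the gene strand lie between 134 and 35 bases before the start, and the windows of Aim2, Ifi209, Ifi202b and a further start of Ifi203 have none; opposite-strand matches (blue) are in Mndal and Ifi205.

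Irf2 itself, the targeted gene, was counted with 4758 and 4934 reads after control siRNA, and with 1482 and 1529 reads after the siRNAs against it. Its log2 difference was −1.49 ± 0.11 (SE; adjusted p = 0.0048 in edgeR). Gene counts per library ran from 26378584 to 32273565, so counting error is small for all members but Ifi205, which had 106 to 402 reads. The control libraries lay further apart than the IRF2 siRNA libraries, with a median absolute log2 difference over all genes tested of 0.247 against 0.14. Macrophage markers summed to between 23690 and 26180 CPM (reads scaled to the effective library size) in the 4 libraries and none of 8 passed the test. Markers of T, B and NK cells, of mast cells or basophils and of erythroid cells summed to less than 1 CPM each in every library. Neutrophil markers summed to 8.48 and 8.68 CPM with control siRNA and to 9.59 and 11.0 CPM with IRF2 siRNA, and those of fibroblasts and dendritic cells stayed at 12.2 CPM or lower. Monocyte markers summed to 107.7 and 124.5 CPM in the control libraries and to 63.3 and 71.9 CPM in the IRF2 siRNA libraries. Most of that sum was Ccr2, a chemokine receptor of monocytes. None of the 4 monocyte markers tested passed, but Ccr2 and F13a1 came close. Their log2 differences were −0.78 and −0.93 (adjusted p = 0.0509 and 0.0538 in edgeR). Vcan and Ly6c2, which had few reads, differed by −0.52 and 0.66. The part of these marker levels in the values below was not tested, and in bulk RNA fewer cells of a type and less RNA per cell cannot be told apart.

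Aim2, the cytosolic DNA sensor of the inflammasome, had 94.2 and 89.3 CPM in control replicates 1 and 2 and 113.7 and 121.2 CPM in IRF2 siRNA replicates 1 and 2. Both IRF2 siRNA libraries were above both controls, which was so for 19% of all genes tested. Its mean went from 91.8 ± 3.42 to 117.4 ± 5.32 CPM (SD, n = 2 each), a log2 difference of 0.36 ± 0.11 (SE). Aim2 is the first gene of the cluster, at 173350879 to 173466040 on the plus strand, and encodes 354 codons in its longest annotated reading frame.

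Ifi208 and Ifi205 had the largest differences of the family on the log2 scale, and which was larger changed with the library left out. Ifi208 had 89.9 and 119.5 CPM in the control libraries against 28.8 and 35.3 CPM with IRF2 siRNA. The higher IRF2 siRNA library was below the lower control library by more than 50 CPM. The log2 difference was −1.71 ± 0.18 (SE). Ifi213, which shares the 60-base stretch with Ifi208, had 235.6 and 309.9 CPM in the controls and 114.4 and 122.3 CPM with IRF2 siRNA. Again the groups did not overlap, and the means were 272.8 ± 52.5 and 118.3 ± 5.59 CPM (SD, n = 2 each). Ifi206, the third gene with this promoter sequence, had 181.1 and 225.4 CPM against 101.6 and 106.9 CPM. In Ifi206, Ifi208 and Ifi213 control replicate 2 was higher than control replicate 1, by 0.32, 0.41 and 0.40 on the log2 scale, which is more than the median gene. The mean levels of Ifi213 and Ifi206 were 0.434 and 0.513 of control.

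Ifi205 encodes p205, reported in mouse macrophages to control expression of the ASC adaptor. It was the least abundant member, with 402 and 400 reads in the controls and 106 and 118 reads with IRF2 siRNA. Its level went from 13.1 ± 1.1 to 4.17 ± 0.232 CPM (SD, n = 2 each), a log2 difference of −1.65 ± 0.16 (SE). Ifi211, whose promoter stretch resembles that of Ifi205, had 143.5 and 135.5 CPM in the controls and 77.1 and 80.4 CPM with IRF2 siRNA. Its log2 difference was −0.82 ± 0.11 (SE), and its control libraries differed by only 0.08 on the log2 scale. Ifi205, Ifi206, Ifi208, Ifi211 and Ifi213 were the 5 members called lower by the test over all genes.

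Ifi209 and Ifi204 were lower without reaching the call. Ifi209, listed under the older symbol Pyhin1 in RefSeq, had 359.2 and 412.4 CPM in the controls against 260.3 and 273.0 CPM with IRF2 siRNA. Its log2 difference was −0.53 ± 0.12 (SE). Ifi204, the relative of human IFI16, had 654.0 and 591.7 CPM in the controls and 494.5 and 526.7 CPM with IRF2 siRNA. The groups of both genes did not overlap, and the log2 difference of Ifi204 was −0.29 ± 0.12 (SE). In all, 7 members had both IRF2 siRNA libraries below both controls, which was the case for 19.4% of all genes tested.

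Ifi203 and Ifi207 were the members whose groups overlapped. Ifi207, reported to regulate cytokine transcription in mouse macrophages, had 668.0 and 858.2 CPM in the controls and 646.6 and 725.4 CPM with IRF2 siRNA. Ifi203 had 413.2 and 526.3 CPM against 398.6 and 443.9 CPM. In both genes IRF2 siRNA replicate 2 lay between the control libraries. Without control replicate 2 the log2 fold changes of Ifi203 and Ifi207 were 0.03 and 0.04, against −0.16 and −0.15 with all libraries, so their direction rested on that library.

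**Figure D2:**
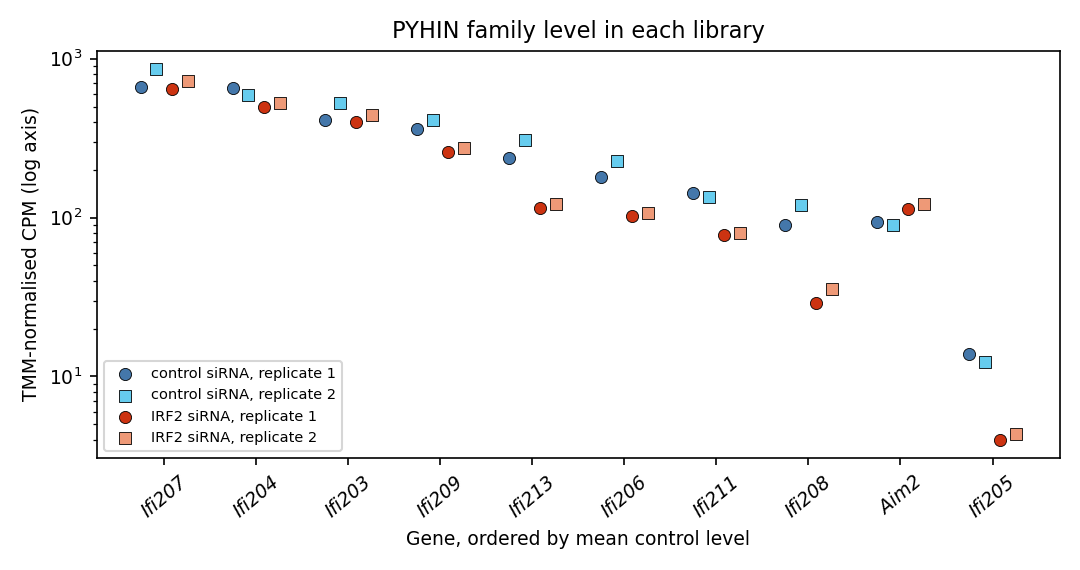
Level of each member in each of the 4 libraries, in TMM-normalised CPM on a log axis (y), with genes ordered by mean control level (x); blue points are control siRNA and red points IRF2 siRNA. The groups overlap in Ifi207 and Ifi203, lie furthest apart in Ifi208 and Ifi205, and are inverted in Aim2.

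Set against Aim2 in the same library, which cancels the scaling of the library, the other members were lower in both IRF2 siRNA libraries. Falling against Aim2 was part of the rule that chose the family, so nothing is read from this. Aim2 itself was higher with IRF2 siRNA, so a gene that did not differ would also be lower against it. Ifi213 was at 2.5 and 3.47 times the Aim2 CPM in control replicates 1 and 2 and at 1.01 times in both IRF2 siRNA libraries. The ratio of Ifi208 went from 0.955 and 1.34 to 0.254 and 0.291, and that of Ifi205 from 0.147 and 0.138 to 0.0352 and 0.0357. Ifi207, whose level overlapped between groups, was at 7.09 and 9.61 times the Aim2 CPM in the controls and at 5.69 and 5.99 times with IRF2 siRNA. These ratios compare reads, which also depend on transcript length, and a change in them can come from Aim2 or from the other gene.

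The 10 members together had 2853 and 3281 CPM in the controls and 2240 and 2439 CPM with IRF2 siRNA. The means were 3067 ± 303 against 2340 ± 141 CPM (SD, n = 2 each), a 1.31-fold lower sum after IRF2 siRNA. Most of the sum came from Ifi207, Ifi204 and Ifi203. Ifi207 made up 23.4% and 26.2% of it in the controls and 28.9% and 29.7% with IRF2 siRNA. Aim2 made up 3.3% and 2.72% in the controls and 5.08% and 4.97% with IRF2 siRNA, while Ifi208 went from 3.15% and 3.64% to 1.29% and 1.45%.

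To compare genes, levels were divided by the length of all annotated exons, in CPM per kilobase. In control cells Ifi207 was highest, at 223 ± 39.3 CPM per kilobase (SD, n = 2), then Ifi204 at 175 ± 12.4 and Ifi209 at 109 ± 10.6 (SD, n = 2 each). The next 3 genes were Ifi211, Ifi203 and Ifi206, with means of 78.2, 70.0 and 66.5 CPM per kilobase, and in that order the libraries of neighbours overlapped. Below them came Ifi213 at 39.9, Aim2 at 26.2, Ifi208 at 19.9 and Ifi205 at 3.13 CPM per kilobase, each with libraries apart from the next. With IRF2 siRNA the first 3 kept their places, at 200, 143 and 75.2 CPM per kilobase. Ifi203 was then above Ifi211, at 62.8 against 44.1 CPM per kilobase, and Aim2 was above Ifi213, at 33.5 against 17.3. Aim2 and Ifi206, at 33.5 and 34.1 CPM per kilobase, overlapped in the IRF2 siRNA libraries.

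Levels of these paralogs depend on how much of each transcript is unique, because reads that aligned to more than 1 place were not counted for any gene. Such reads were 12.5% to 15% of each library's total. The read length is not given in the sources used here, so GENCODE M21 transcripts were split into windows of 36, 50 and 100 bases. Repeats within a single gene were not looked for, so a window repeated there still counted as unique. At 50 bases, 99.3% of Aim2 windows and 92.7% of Ifi207 windows were found in no other gene's transcripts. Ifi211 stood at the other end with 27.2%, since 44.7% of its windows also occurred in Ifi205 and 30.1% in Ifi204. For Ifi209 the unique share was 66.2%, with 33.4% of windows shared with Ifi214, and Ifi206 had 74.4%. Ifi208 and Ifi213 had 951 windows of 50 bases in common, which is 18.1% of those of Ifi208 and 13.6% of those of Ifi213. The level of Ifi211 per kilobase therefore rests on a small share of its sequence at that window length, and reads of the closest copies may be split or lost. The median unique share over the 10 members was 80.7% at 50 bases, 73.7% at 36 and 91.7% at 100.

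**Figure D3:**
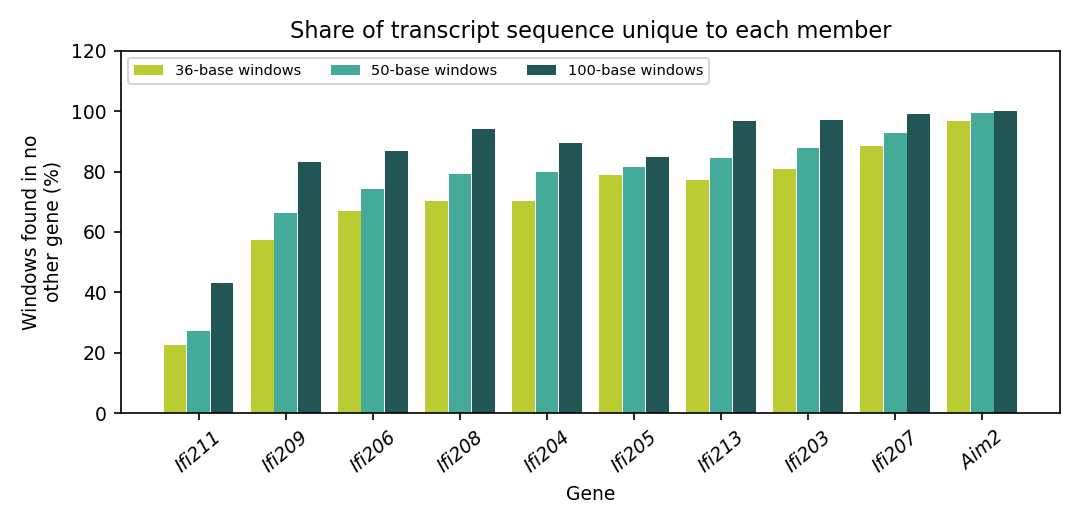
Share of each member's transcript windows found in no other annotated gene (y axis, percent), for windows of 36, 50 and 100 bases. Ifi211 is lowest at every window length and Aim2 is highest, at 96.7% to 100% of windows.

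Along chromosome 1 the members span 680.9 kb of mm10, from 173350879 to 174031810. Ifi206 lies at 173468485 to 173491041, Ifi213 at 173566283 to 173599274, Ifi207 at 173723427 to 173741747, Ifi204 at 173747293 to 173766943, Ifi211 at 173896345 to 173913046, Ifi203 at 173920407 to 173942672 and Ifi205 at 174011998 to 174031810, all on the minus strand. Ifi209 at 173630917 to 173647928 and Ifi208 at 173673675 to 173698395 are, with Aim2, on the plus strand. The larger differences were not at 1 end: Ifi208 lies mid-cluster beside Ifi207, which differed little, and Ifi205 is the last gene. Of the annotated exon bases of the members, the 37 that Ifi203 shares with Mndal were the only overlap found between a member and another gene.

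Of 10 further names on the list of PYHIN cluster genes, 4 matched a gene of the table by symbol, namely Mndal, Ifi214, Ifi203-ps and Ifi202b. Mnda, Pydc3, Pydc4 and Pyhin1 are older symbols of members in RefSeq, Ifi212 is one of Mndal, and Pydc5 had no match. No gene among the 3 tested passed the edgeR quasi-likelihood test over all genes, while 2 had an unadjusted p under 0.05, both lower. The share of all genes at that unadjusted p was not worked out, so nothing is read from this count. DESeq2 called 1 of the 3 lower, the edgeR likelihood ratio test 2 and limma-voom 0. Of all 13495 genes tested, these methods called 307, 518 and 159 lower, in that order. Mndal, a close relative of Ifi203 with the same promoter stretch, had 609.2 and 594.3 CPM in the controls and 645.0 and 649.3 CPM with IRF2 siRNA. Its log2 difference was 0.10 ± 0.11 (SE; adjusted p = 0.894 in edgeR). The pseudogene Ifi203-ps had 27.6 and 36.9 CPM against 18.0 and 18.4 CPM (adjusted p = 0.0745 in edgeR). Ifi214 had 85 and 115 reads in the controls and 41 and 35 reads with IRF2 siRNA (adjusted p = 0.0727 in edgeR). Ifi214 and Ifi203-ps share sequence with Ifi209 and Ifi203. Ifi202b, which encodes a HIN protein without a pyrin domain known to inhibit AIM2, had 4 and 2 reads in the controls and 0 in both IRF2 siRNA libraries, too few to test.

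**Figure D4:**
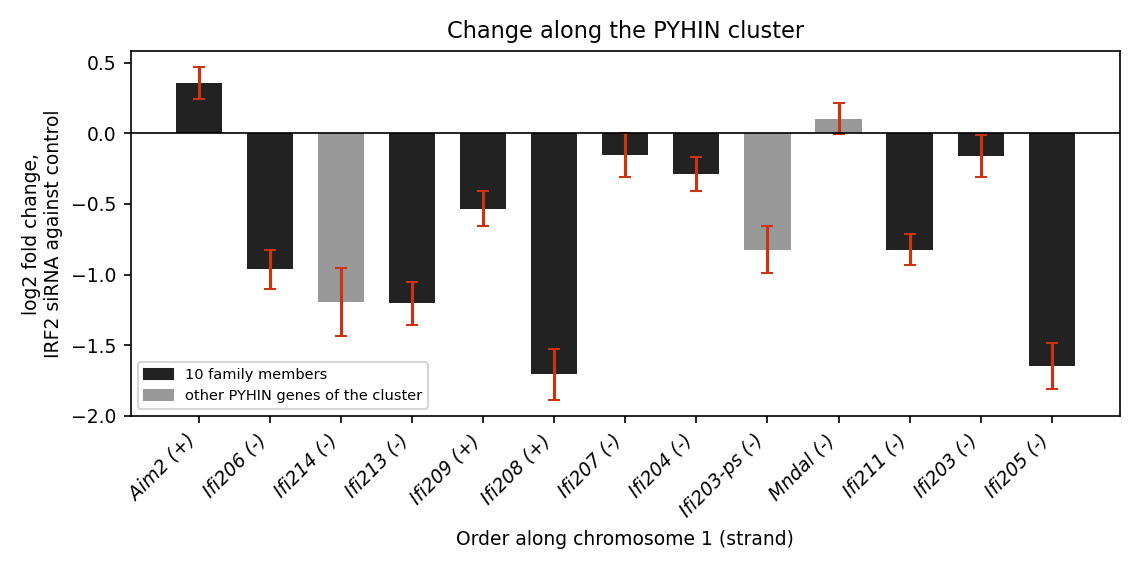
Log2 fold change of IRF2 siRNA against control siRNA (y axis; bars, with standard errors in red) for the 10 members (black) and 3 other tested PYHIN genes (grey), in chromosomal order with strand (x axis). Aim2 and Mndal are above 0, and Ifi208 and Ifi205 reach −1.71 and −1.65.

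The tested genes nearest to the cluster were Dusp23 and Slamf8 before it and Fh1 and Kmo after it. They do not adjoin it: Dusp23 ends at 172632962 and Fh1 begins at 175600374. Each lies further from the cluster than the 680.9 kb that the members span. Dusp23, Fh1 and Kmo did not pass, with log2 differences of 0.16, 0.17 and 0.06 and adjusted p = 0.915, 0.821 and 0.963 in edgeR. Slamf8, a receptor of the SLAM family, rose from 7.05 ± 1.19 to 13.8 ± 0.12 CPM (SD, n = 2 each) (adjusted p = 0.0428 in edgeR). Inside the cluster the pseudogene Gm18752, which shares sequence with Ifi206, had 13 and 23 reads in the controls and 2 and 1 reads with IRF2 siRNA. It had an edgeR adjusted p = 0.0797.

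The list of AIM2 inflammasome genes also held genes of other inflammasomes, such as Nlrp3, Nlrc4 and Nek7. Of its 14 tested genes, 3 were called higher and none lower, against 0.511% of all genes called higher. The list was drawn up with earlier results of these data known. Casp1, the protease that AIM2 activates through ASC, had 113.5 and 96.6 CPM in the controls and 256.9 and 254.7 CPM with IRF2 siRNA. Its log2 difference was 1.28 ± 0.13 (SE; adjusted p = 0.0079 in edgeR). Zbp1, a sensor of nucleic acids in Z form, had 206.9 and 215.6 CPM against 436.7 and 443.2 CPM (adjusted p = 0.00919 in edgeR). Casp4, the caspase of the non-canonical pathway, had 58.2 and 50.8 CPM against 106.2 and 97.3 CPM (adjusted p = 0.02 in edgeR). Of the 14 tested genes, 5 had both IRF2 siRNA libraries above both controls and 4 had both below. Over all genes tested, these shares were 19% and 19.4%. Leaving out IRF2 siRNA replicate 1 lost the call of Casp4, as did dropping the filter on low counts, and without control replicate 2 the list had 5 called genes, 3 higher and 2 lower. With all libraries, 1 gene of the list was lower at an unadjusted p under 0.05, a count whose share over all genes was not worked out.

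Pycard, which encodes ASC, had 50.5 and 45.8 CPM in the controls and 55.8 and 50.7 CPM with IRF2 siRNA, and did not pass (log2 difference 0.15, adjusted p = 0.836 in edgeR). Gsdmd, the pore protein that caspase-1 cleaves, was at 148.9 ± 11.3 and 148.6 ± 3.83 CPM (SD, n = 2 each). The cytokine gene Il1b differed by −0.35 on the log2 scale and Il18 by −0.17 (adjusted p = 0.344 and 0.825 in edgeR). The list's median log2 fold change was 0.005, beside −0.0015 for all genes tested.

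**Figure D5:**
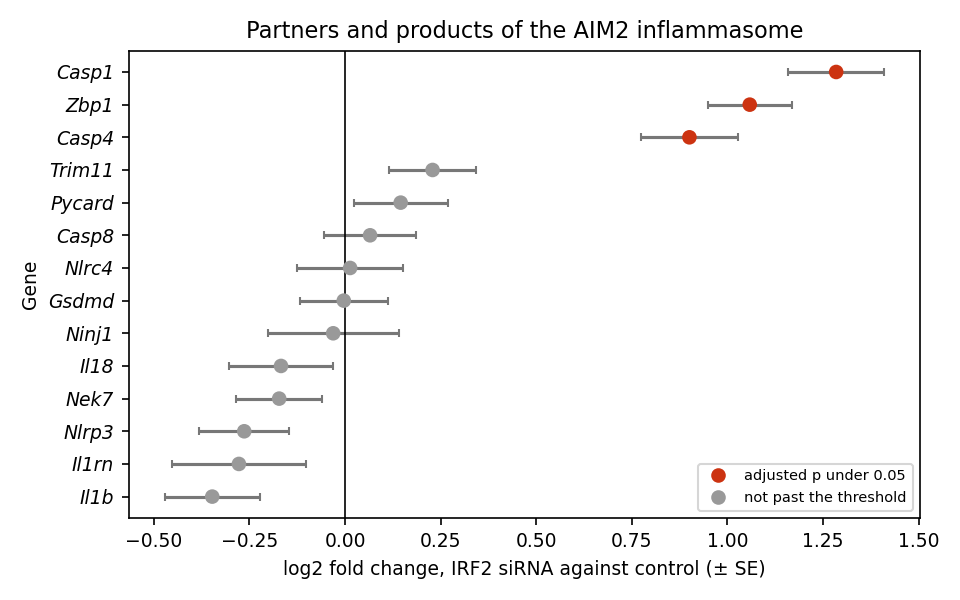
Log2 fold change with standard error (x axis) of the 14 tested genes of the AIM2 inflammasome list (y axis), with genes past an adjusted p of 0.05 in red. Casp1, Zbp1 and Casp4 are at 1.28, 1.06 and 0.90 and the remaining genes lie between −0.35 and 0.23.

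The list for the other cytosolic DNA route, through cGAS and STING, also held other nucleic acid sensors, such as Ddx41, and enzymes such as Samhd1. Of its 27 tested genes, 2 were called higher and none lower. At an unadjusted p under 0.05, 2 were lower, a count whose share over all genes was not worked out. Over all genes tested, 0.511% were called higher and 1.27% lower. Those that rose were Zbp1, already counted in the inflammasome list, and Samhd1, a nuclease that degrades deoxynucleotide triphosphates, which had 1049 and 1166 CPM in the controls and 1793 and 1906 CPM with IRF2 siRNA. Its edgeR adjusted p was 0.0399, and it did not pass when either IRF2 siRNA library was left out or low counts were kept in. Without control replicate 1 the list had 2 genes called higher and 3 lower, and without control replicate 2 it had 2 higher and 2 lower. Cgas, the DNA-sensing enzyme, had 20.2 ± 2.03 CPM against 14.5 ± 2.08 CPM (SD, n = 2 each) and did not pass (log2 difference −0.48, adjusted p = 0.29 in edgeR). The gene for STING, listed as Tmem173, differed by 0.22 on the log2 scale (adjusted p = 0.625 in edgeR). Irf7, which STING and Toll-like receptor signals use to induce interferon, differed by −0.39 (adjusted p = 0.261 in edgeR). Ifnb1 had at most 1 read in any library, and Trex1, whose exons all lie within Atrip, had none counted. The list's median log2 fold change was −0.02.

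Genes with the most similar pattern over the 4 libraries were sought outside the family by the distance between log2 CPM profiles centred on each gene's mean. Nearest to the mean profile of the 9 members other than Aim2 were Clspn, Zmynd15 and Kif20b, at distances of 0.052, 0.0585 and 0.0738. Clspn went from 13.2 ± 1.12 to 7.57 ± 0.242 CPM (SD, n = 2 each). Nearest to Aim2 were Atg5, Tigar and Wdr75, at 0.0258, 0.0426 and 0.0471, and Atg5 had 33.9 ± 1.58 and 42.8 ± 1.74 CPM (SD, n = 2 each). With 4 libraries in 2 groups, such distances mostly reflect the difference between groups.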

How the data were processed

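The authors deposited 1 table of raw read counts per gene, with 1 column per library and 5 summary rows that name no gene. Those rows were left out of all tests. They held 5.07% to 6.85% (no gene), 4.17% to 4.71% (ambiguous) and 12.5% to 15% (more than 1 place) of column totals. Per the submitters' processing notes, bcl2fastq 2.18.0.12, STAR 2.5.2b, HTSeq 0.6.0 and DESeq2 were used with mm10. Which annotation release and strand setting were used is not given in the sources used here.

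Libraries were grouped by siRNA label. The tests used edgeR 4.0.16 under R 4.3.3: filterByExpr (minimum count 10, minimum total 15), TMM scaling and glmQLFit with glmQLFTest, with Benjamini-Hochberg adjustment over 13495 genes and a threshold of 0.05. The script was tested on simulated data. The SE of a log2 difference (IRF2 siRNA minus control siRNA) is its size over the root of the F statistic. CPM values are TMM-normalised. Symbols and exons came from GENCODE M21, promoters from RefSeq. Alternatives included DESeq2 1.42.0 and limma-voom in limma 3.58.1, other scalings and filters, the replicate number as a block, and leaving out each library.

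The members, gene lists and tests were chosen with earlier results of these data known. Named genes were Irf2, all members, called genes of each list (otherwise the 2 with the smallest p), the tested genes nearest to the cluster and those with the nearest profiles. Other genes of the lists, and Gm18752, were chosen after their values were seen.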

Additional observations from a re-analysis of the deposited data

How the results depend on the processing

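Of 120 recomputed log2 fold changes of members, 116 kept their direction and moved by no more than the spread between replicates. The 4 others were all without control replicate 2. Ifi203 and Ifi207 changed direction there, and Ifi206 and Ifi213 moved by more than the spread. The count of 116 was largely fixed beforehand and does not measure robustness. Leaving out 1 of 2 libraries moves a log2 fold change by about that spread at most. The other fits reused the same counts. The direction of Ifi205, Ifi206, Ifi208, Ifi209, Ifi211, Ifi213, Ifi204 and Aim2 was the same in every fit. Among all genes tested, 241 were called, against totals in separate fits of 72 without a filter on low counts, 427 by DESeq2 and 690 by the edgeR likelihood ratio test, and between 237 and 1770 when 1 library was left out. The high counts were those without a control library, 1424 without replicate 1 and 1770 without replicate 2. Members called numbered 5, against 1 without a filter, and from 3 without IRF2 siRNA replicate 1 to 7 without either control library; without control replicate 1 the 7 included 1 called higher. Other PYHIN cluster genes called numbered 0, against 1 by DESeq2 and 2 by the likelihood ratio test, and from 0 to 2 when 1 library was left out, the 2 being without either control library. Inflammasome genes called numbered 3, and from 2 to 5 with a library left out. The cGAS-STING genes called numbered 2, against 1 without a filter, and from 1 to 5 with a library left out. The highest of these were without control replicate 2 and control replicate 1, in that order. The cause was not tested.

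With the replicate number as a replicate block, 1521 genes were called, among them 8 members, 2 other PYHIN genes, 4 inflammasome genes (3 higher, 1 lower) and 5 cGAS-STING genes (2 higher, 3 lower). The labels name no pairing, and with 2 numbers the correlation of same-numbered deviations over genes, 0.373, does not establish one. Depth limits Ifi205 most among the members, and the effect of shared sequence on the level of Ifi211 was not tested.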
